A study of Mus musculus with 10 samples.

Results

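The genes described here are the FOXO factors and the ubiquitin ligases known from muscle atrophy, in C2C12 cells with and without knockdown of *Fndc1*. They were chosen by name and are 10 of the 55359 genes in the authors' table. They comprise 3 FOXO genes (*Foxo1*, *Foxo3* and *Foxo4*), the MuRF genes (*Trim63*, *Trim54* and *Trim55*), the F-box genes *Fbxo32*, *Fbxo30* and *Fbxo40*, and *Nedd4*. All 10 were present under these symbols and passed the filter on low values that left 13548 genes for testing. C2C12 is a mouse myoblast line whose cells fuse into myotubes when serum is withdrawn. The si-Control group was transfected with a control siRNA and the si-*Fndc1* group with an siRNA against *Fndc1*, each at 100 nM according to the labels, and both were taken on day 4 of differentiation in 2% horse serum after growth in 20% FBS. The sequenced RNA came from 5 libraries per group, 10 in all, and the labels name no separate cultures, so that the spread between libraries may be partly technical. The description of the series places the cells instead at 48 h after transfection.

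FOXO proteins are transcription factors that are held in the cytoplasm when AKT phosphorylates them and 14-3-3 proteins bind them, and that enter the nucleus when AKT signaling is low. In fasted, denervated or unloaded muscle, nuclear FOXO activates *Fbxo32* (atrogin-1) and *Trim63* (MuRF1), which encode ubiquitin ligases that direct muscle proteins to the proteasome. The study examined FNDC1, a secreted protein, together with AKT signaling in myogenesis, which leads to the question of how these genes stand after its knockdown. Their mRNA levels do not show where FOXO proteins are located.

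The sequences before the start sites of 3 genes are shown here, because *Trim63* is an established FOXO target and because *Foxo3* and *Fbxo30* were the genes whose libraries separated completely by group. They are the 250 bases upstream of the RefSeq start in build GRCm38.p6, written 5′ to 3′ on the strand of the gene. Capitals mark a FOXO element, searched as GTAAACA and its reverse complement TGTTTAC, and an E-box, searched as CAGCTG, the letters bound by myogenic factors. Another motif, the insulin response sequence CAAAACAA with its reverse complement TTGTTTTG, was also searched. No motif overlapped another in these sequences.
Trim63, chr4:134314870-134315119, plus strand: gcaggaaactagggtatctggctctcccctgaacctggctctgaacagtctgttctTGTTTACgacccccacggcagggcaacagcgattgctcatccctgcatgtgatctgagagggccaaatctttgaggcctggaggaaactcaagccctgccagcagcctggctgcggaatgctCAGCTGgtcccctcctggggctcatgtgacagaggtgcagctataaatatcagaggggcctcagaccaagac
Foxo3, chr10:42276696-42276945, minus strand: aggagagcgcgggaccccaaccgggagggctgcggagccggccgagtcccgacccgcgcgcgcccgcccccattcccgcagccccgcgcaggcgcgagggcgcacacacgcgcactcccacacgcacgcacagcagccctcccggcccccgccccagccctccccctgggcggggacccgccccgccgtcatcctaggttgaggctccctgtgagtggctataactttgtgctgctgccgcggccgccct
Fbxo30, chr10:11281337-11281586, plus strand: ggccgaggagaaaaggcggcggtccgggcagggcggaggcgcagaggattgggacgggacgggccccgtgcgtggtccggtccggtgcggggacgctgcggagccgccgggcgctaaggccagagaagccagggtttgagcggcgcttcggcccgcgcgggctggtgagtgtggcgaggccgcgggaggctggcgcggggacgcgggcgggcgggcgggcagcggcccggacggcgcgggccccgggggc

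RefSeq promoters of 300 bases, 250 before and 50 after the start, were matched by symbol for 7 of the 10 genes, with 9 sequences in all, and not for *Foxo4*, *Fbxo32* and *Trim55*. The FOXO element was found in 1 of the 7 genes, *Trim63*, where it lay on the minus strand with its first base at position -194 from the start. It occurred in 3.65% of the 32851 mouse promoters of the same length and, counted by gene, in 1095 of 27025 genes. CAGCTG was found in 4 of the 7 genes. It began at -72 in *Trim63*, at -113 in *Trim54*, at -81 and -53 in the first promoter of *Fbxo40*, at -89 in its second promoter and at -139 in the second promoter of *Nedd4*. Over all mouse promoters, CAGCTG occurred in 16.3% and, counted by gene, in 4944 of 27025 genes. CAAAACAA was found in 0 of the 7 genes, in 2.51% of all promoters and in 779 of 27025 genes. The promoters of *Foxo3* and *Fbxo30* had GC contents of 75.0% and 79.7% and that of *Trim63* had 57.0%, against a median of 52.7% over all promoters. A match or its absence describes these letters in these windows only.

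Libraries held 66771605 to 75995168 counted reads in the si-Control group and 56332844 to 72839369 in the si-*Fndc1* group. *Fndc1* itself was at 27.8 ± 2.04 FPKM in si-Control and 20.9 ± 1.70 FPKM in si-*Fndc1* (mean ± SD, n = 5 in each group, as for all means here), a ratio of 0.752 with no overlap, so that most of the transcript remained in the knockdown libraries. Here FPKM is a read count divided by library size and transcript length. The log2 fold change of *Fndc1* was -0.40 on the counts and -0.22 with the correction for GC content and length described below. Over all tested genes, 4663 (34.4%) were called at an adjusted p-value under 0.05 in the quasi-likelihood (QL) test of edgeR on the counts, the test behind all adjusted p-values unless stated otherwise, 17.3% higher and 17.2% lower in si-*Fndc1*. All 16 myotube markers were expressed at a mean of at least 1 FPKM. They summed to 6700 to 7052 FPKM in si-Control and 7022 to 7838 FPKM in si-*Fndc1*, and 5 rose and 2 fell. Within that sum, *Mylpf* was at 1864 to 2114 FPKM in si-Control and at 2460 to 2706 FPKM in si-*Fndc1*. The FPKM of all genes also summed to more in si-*Fndc1*, as given below. Of 19 hepatocyte markers listed, all 17 that were tested rose, from sums of 0.270 to 7.60 FPKM to sums of 62.9 to 214.8 FPKM (albumin, *Alb*, 0.0001 to 2.83 against 12.0 to 60.8 FPKM, where 0.0001 stands for no count). Most of these hepatocyte markers were under 0.5 FPKM in every si-Control library and passed the filter only through si-*Fndc1*. A rise of those markers was therefore set by the filter. The part of the hepatocyte markers in the differences below was not tested. Of the markers of other cells, 0 of 6 adipocyte and 1 of 5 macrophage genes reached the filter, and 2 of 9 genes of undifferentiated or cycling myoblasts rose. In bulk RNA, fewer cells of a type and less RNA per cell cannot be told apart.

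Of the 10 genes, 1 was called lower in si-*Fndc1* (*Foxo3*), 2 were called higher (*Trim55* and *Fbxo30*) and 7 were not called. This count stands against 34.4% of all tested genes. The libraries of the groups did not overlap in FPKM for 2 of the 10 (*Foxo3* and *Fbxo30*), against 25.1% of all tested genes. The differences were small. The median log2 fold change of the 10 was -0.02 against 0.00 over all tested genes, their median absolute log2 fold change was 0.12 against 0.17, and the furthest from 0 was -0.25. After a correction for the GC content and length of the transcripts within each library, 0 of the 10 were called, against 22.7% of the 11185 genes that could be corrected. Before the correction, 5 of the 10 had an unadjusted p-value under 0.05 (44.2% of all tested genes), and these were the 3 called genes, *Foxo1* and *Trim54*. Exact two-sided permutation tests of the FPKM, not adjusted, gave p = 0.00794 for *Foxo3* and *Fbxo30*, 0.0159 for *Trim54*, 0.0238 for *Foxo4* and *Trim55*, 0.0397 for *Foxo1* and 0.349 to 0.778 for the other 4 genes. With 1 library left out, the permutation test of *Foxo1* gave p-values of up to 0.0873 and that of *Foxo4* gave 0.0556 without si-*Fndc1* replicate 2.

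**Figure D1:**
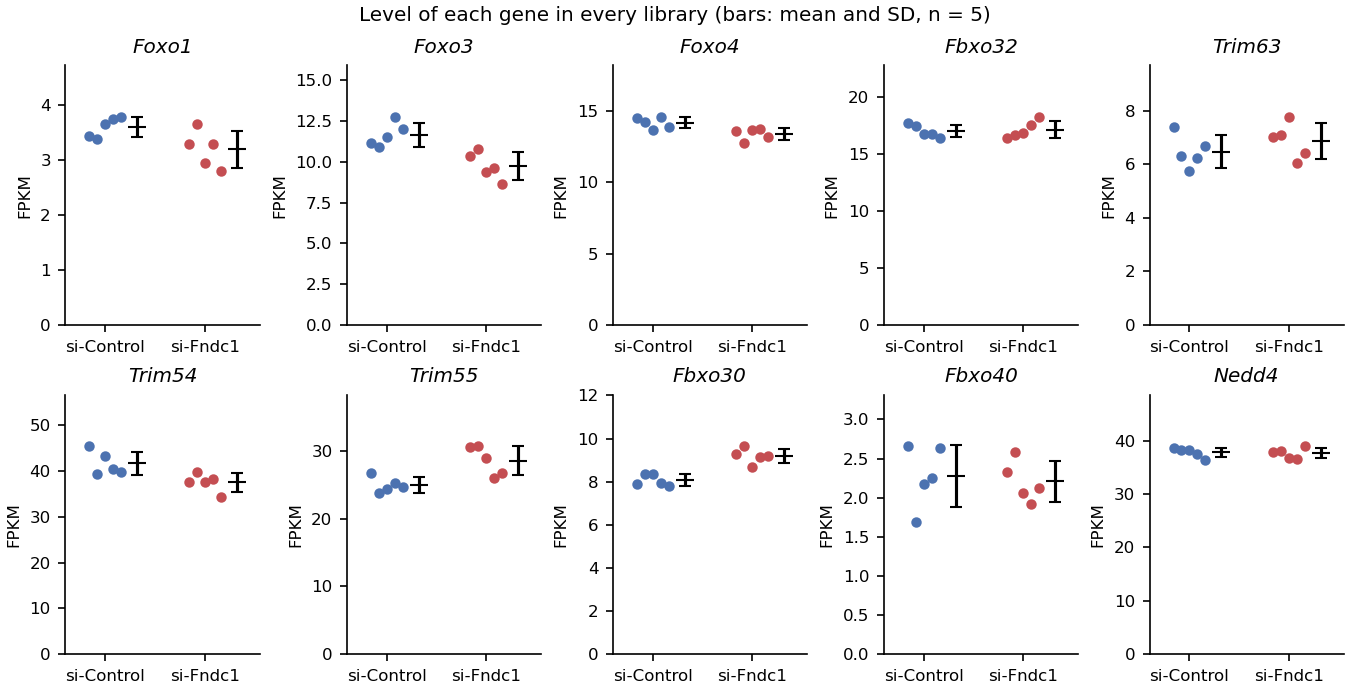
Level of each of the 10 genes in FPKM (vertical axes, from 0) in the 5 si-Control (blue) and 5 si-Fndc1 (red) libraries, in order of replicate number, with black bars for the mean and SD. The groups separate for Foxo3 and Fbxo30 and overlap for the other 8 genes.

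Among the FOXO genes, *Foxo3* (ENSMUSG00000048756), a factor known to activate atrophy genes in muscle, fell. The table places it at 42057837 to 42152748 of chromosome 10, minus strand, in coordinates that follow the GRCm39 build named in the submitters' processing notes. In order of replicate number, si-Control gave 11.2, 10.9, 11.5, 12.7 and 12.0 FPKM and si-*Fndc1* gave 10.4, 10.8, 9.41, 9.61 and 8.63 FPKM. The groups did not overlap, and si-*Fndc1* was the lower throughout, by a narrow margin between si-*Fndc1* library 2 and si-Control library 2. The mean was 11.7 ± 0.733 FPKM in si-Control and 9.76 ± 0.845 FPKM in si-*Fndc1*, from 4082 to 7794 counts per library. The log2 fold change was -0.25 (standard error, SE, 0.06, adjusted p = 0.0116, edgeR QL test), and the two-sided exact permutation test of the FPKM gave p = 0.00794, the smallest that 5 libraries against 5 allow. With the correction for GC content and length, the log2 fold change was -0.11 and no longer called (adjusted p = 0.159, edgeR).

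*Foxo1* (ENSMUSG00000044167, chromosome 3 from 52175757 to 52260642, plus strand), which encodes the FOXO factor best known from insulin signaling and which also acts in muscle, was not called. It had 3.43, 3.39, 3.66, 3.75 and 3.78 FPKM in si-Control, by replicate number, and 3.29, 3.66, 2.94, 3.28 and 2.80 FPKM in si-*Fndc1*. In si-*Fndc1*, 4 of the 5 libraries lay below every si-Control library, and library 2 lay among them. The means were 3.60 ± 0.181 and 3.20 ± 0.336 FPKM. The log2 fold change was -0.16 with a 95% interval from -0.33 to -0.00 (SE 0.07, adjusted p = 0.109, edgeR QL test). Without si-*Fndc1* replicate 2 it was -0.22 and was called (adjusted p = 0.0273, edgeR), and with the correction for GC content and length it was -0.08 (adjusted p = 0.407, edgeR).

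*Foxo4* (ENSMUSG00000042903, chromosome X from 100298134 to 100304479, plus strand) encodes a further factor under AKT control. Its level was 14.5, 14.2, 13.7, 14.6 and 13.9 FPKM in si-Control, by replicate number, and 13.6, 12.8, 13.7, 13.8 and 13.2 FPKM in si-*Fndc1*. The groups overlapped, with si-*Fndc1* libraries 3 and 4 at the level of the lowest si-Control libraries. The means were 14.2 ± 0.388 and 13.4 ± 0.422 FPKM, and the log2 fold change of -0.07 (SE 0.04) did not pass the test (adjusted p = 0.148, edgeR QL test). It was 0.03 with the correction for GC content and length, so that its sign depended on that step.

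*Foxo6*, the remaining FOXO gene and not among the 10, is given because the level of the family turns on it. It had 12.9, 13.3, 12.6, 15.7 and 13.7 FPKM in si-Control, by replicate number, and 9.51, 11.2, 9.94, 9.34 and 8.68 FPKM in si-*Fndc1*. All si-*Fndc1* libraries lay below all si-Control libraries. Its log2 fold change was -0.48 (SE 0.08, adjusted p = 0.00102, edgeR QL test), which became -0.14 with the correction for GC content and length (adjusted p = 0.278, edgeR). The GC content of its transcript, 69.1%, was far above the median of the tested genes, 50.5%. Summed over *Foxo1*, *Foxo3*, *Foxo4* and *Foxo6*, the FOXO level was 43.1 ± 2.17 FPKM in si-Control (41.5 to 46.8) and 36.1 ± 1.85 FPKM in si-*Fndc1* (33.3 to 38.4). *Foxo4* made up 33.0 ± 1.40% of that sum in si-Control and 37.3 ± 2.40% in si-*Fndc1*, and *Foxo6* 31.6 ± 1.21% and 26.9 ± 1.44%. The share of *Foxo3* was 27.1 ± 0.726% and 27.0 ± 1.08%, and that of *Foxo1* was 8.36 ± 0.369% and 8.83 ± 0.548%. These sums and shares keep any trend with GC content and length, and with the correction no FOXO gene was called. They are descriptions and were not tested.

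The classical FOXO targets among the ligases were not called. *Fbxo32* (ENSMUSG00000022358, chromosome 15 from 58039275 to 58078328, minus strand) encodes atrogin-1, the F-box subunit of a ligase for MyoD and the translation factor eIF3f. Its level was 17.7, 17.5, 16.7, 16.8 and 16.4 FPKM in si-Control, by replicate number, and 16.4, 16.6, 16.9, 17.5 and 18.2 FPKM in si-*Fndc1*. The groups covered almost the same range. The means were 17.0 ± 0.558 and 17.1 ± 0.735 FPKM, and the log2 fold change was 0.02 with a 95% interval from -0.06 to 0.10 (adjusted p = 0.759, edgeR QL test). On a linear scale the interval of the fold ran from 0.957 to 1.07.

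*Trim63* (ENSMUSG00000028834, chromosome 4 from 134042431 to 134056940, plus strand) encodes MuRF1, a RING-type ligase of the sarcomere that acts on thick filament proteins. It had 7.42, 6.33, 5.76, 6.23 and 6.69 FPKM in si-Control, by replicate number, and 7.04, 7.11, 7.77, 6.05 and 6.42 FPKM in si-*Fndc1*. The groups overlapped over most of their range, and only si-*Fndc1* library 3 lay above all si-Control libraries. The means were 6.48 ± 0.617 and 6.88 ± 0.666 FPKM, and the log2 fold change was 0.09 with a 95% interval from -0.10 to 0.28 (adjusted p = 0.436, edgeR QL test). On a linear scale the interval of the fold ran from 0.936 to 1.21, wider than that of *Fbxo32*. *Trim63* is the gene whose promoter, shown above, holds the FOXO element.

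Of the MuRF genes, *Trim55* was called. *Trim55* (ENSMUSG00000060913, chromosome 3 from 19698638 to 19746585, plus strand) encodes MuRF2, a partner of titin that associates with microtubules during myofibril assembly, and it rose. In replicate order, si-Control gave 26.7, 23.7, 24.3, 25.2 and 24.6 FPKM and si-*Fndc1* gave 30.6, 30.6, 28.9, 25.9 and 26.7 FPKM. In si-*Fndc1*, libraries 1 to 3 lay above all si-Control libraries, while libraries 4 and 5 reached no higher than si-Control library 1. The means were 24.9 ± 1.16 and 28.5 ± 2.19 FPKM, and the log2 fold change was 0.20 (SE 0.06, adjusted p = 0.0160, edgeR QL test). With the correction for GC content and length it was 0.14 and no longer called (adjusted p = 0.143, edgeR), at a transcript GC content of 50.5%.

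*Trim54* (ENSMUSG00000062077, chromosome 5 from 31274056 to 31294974, plus strand) encodes MuRF3, a microtubule-binding member of the family. It had 45.4, 39.4, 43.3, 40.4 and 39.8 FPKM in si-Control, by replicate number, and 37.5, 39.7, 37.6, 38.3 and 34.3 FPKM in si-*Fndc1*. In si-*Fndc1*, 4 of the 5 libraries lay below all si-Control libraries, and library 2 lay between si-Control libraries 2 and 5. The means were 41.7 ± 2.58 and 37.5 ± 2.00 FPKM. The log2 fold change was -0.14 (SE 0.05) and was not called at an adjusted p of 0.0611 (edgeR QL test), close to the threshold. It was called by limma on log2(FPKM + 1), with -0.15 and an adjusted p of 0.0431, and it was -0.09 with the correction for GC content and length (adjusted p = 0.327, edgeR).

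Summed over the 3 MuRF genes, the level was 73.1 ± 3.88 FPKM in si-Control and 72.9 ± 4.05 FPKM in si-*Fndc1*. Within that sum, *Trim54* made up 57.0 ± 1.20% in si-Control (56.0% to 59.0%) and 51.5 ± 1.79% in si-*Fndc1* (49.9% to 54.5%). *Trim55* made up 34.1 ± 0.779% (33.1% to 35.1%) and 39.1 ± 1.41% (36.9% to 40.7%), and the libraries of the groups did not overlap in either share. These are not separate observations, since the shares add up to the whole. How often such shares separate for other genes was not computed, and the FPKM of 25.1% of all tested genes did not overlap. *Trim63* made up 8.87 ± 0.639% and 9.42 ± 0.673%. A share needs no scaling between libraries, but it keeps any trend with GC content and length, in which these genes differ. With the correction for GC content and length, the log2 fold changes of *Trim54* and *Trim55* were -0.09 and 0.14, against -0.14 and 0.20 without it. The shares were not tested.

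*Fbxo30* (ENSMUSG00000047648, chromosome 10 from 11157074 to 11173796, plus strand), which encodes MUSA1, an F-box protein that BMP signaling holds down in muscle, rose. It had 7.91, 8.36, 8.36, 7.94 and 7.80 FPKM in si-Control, by replicate number, and 9.28, 9.63, 8.70, 9.16 and 9.18 FPKM in si-*Fndc1*. Every si-*Fndc1* library lay above every si-Control library. The means were 8.07 ± 0.266 and 9.19 ± 0.335 FPKM, and the log2 fold change was 0.19 (SE 0.04, adjusted p = 0.00273, edgeR QL test), the smallest adjusted p among the 10 genes. Its transcript had the lowest GC content of the 10, 38.2%. With the correction for GC content and length, the log2 fold change turned to -0.05 (adjusted p = 0.381, edgeR).

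*Fbxo40* (ENSMUSG00000047746, chromosome 16 from 36783822 to 36810829, minus strand) encodes a muscle F-box protein that targets IRS1. It had 2.65, 1.68, 2.18, 2.25 and 2.63 FPKM in si-Control, by replicate number, and 2.33, 2.59, 2.06, 1.92 and 2.13 FPKM in si-*Fndc1*. The si-*Fndc1* libraries lay inside the range of the si-Control libraries. It was the lowest and most variable of the 10 genes, with a coefficient of variation of 17.4% in si-Control against a median of 8.09% over all tested genes. The means were 2.28 ± 0.397 and 2.21 ± 0.260 FPKM, and the log2 fold change was -0.04 with a 95% interval from -0.32 to 0.24 (adjusted p = 0.839, edgeR QL test).

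*Nedd4* (ENSMUSG00000032216, chromosome 9 from 72569628 to 72657134, plus strand) encodes a HECT-type ligase that is induced in unloaded muscle and acts on membrane receptors. It had 38.7, 38.3, 38.2, 37.6 and 36.5 FPKM in si-Control, by replicate number, and 37.9, 38.1, 36.8, 36.6 and 38.9 FPKM in si-*Fndc1*. The groups overlapped over almost all of their range. With means of 37.8 ± 0.866 and 37.7 ± 0.975 FPKM, from 30653 to 41216 counts per library, it had the narrowest interval of the 10. The log2 fold change was 0.00 with a 95% interval from -0.06 to 0.06 (adjusted p = 0.997, edgeR QL test).

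**Figure D2:**
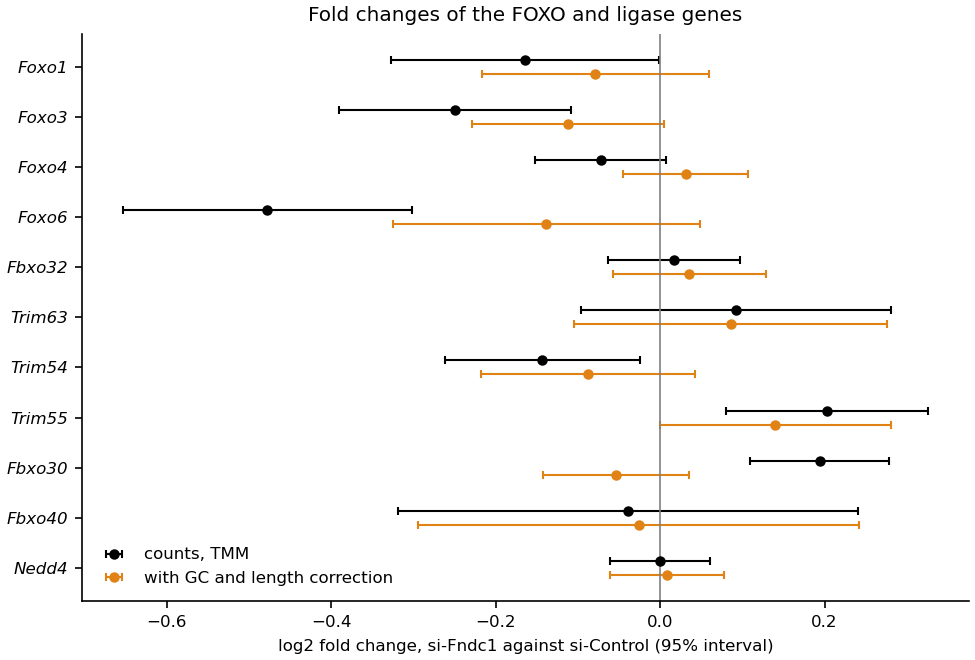
Log2 fold changes of the 10 genes and Foxo6 (si-Fndc1 against si-Control, horizontal axis) with 95% intervals from edgeR, without (black) and with (orange) the correction for GC content and length. Without it the intervals of Foxo1, Foxo3, Foxo6, Trim54, Trim55 and Fbxo30 exclude 0, that of Foxo1 barely. With it the values of the called genes Foxo3, Trim55 and Fbxo30 are -0.11, 0.14 and -0.05. Those of Foxo1, Trim54 and Foxo6 are then -0.08, -0.09 and -0.14.

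As a level per length in si-Control, the order from highest to lowest was *Trim54*, *Nedd4*, *Trim55*, *Fbxo32*, *Foxo4*, *Foxo3*, *Fbxo30*, *Trim63*, *Foxo1* and *Fbxo40*. The libraries of neighbours in this order did not overlap in si-Control. In si-*Fndc1*, *Trim54* and *Nedd4* overlapped and *Trim54* was the higher in 3 of 5 libraries, and *Foxo3* and *Fbxo30* overlapped with *Foxo3* the higher in 4 of 5. The best known pair differed in level, since *Fbxo32* was at 17.0 FPKM and *Trim63* at 6.48 FPKM in si-Control. Reads of overlapping genes could enter these levels, since the strand setting of the counting is not given in the sources used here. The opposite-strand gene *Gm15469* at *Trim54* had 22 to 55 counts per library, *Gm15943* at *Fbxo32* had 0 to 20, and the same-strand genes *BC002189* at *Trim55* and *Gm36936* at *Nedd4* had 69 to 167 and 254 to 370. The 4 genes themselves had at least 3077 counts in every library.

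The FPKM values of all genes summed to 300979 to 320728 in the si-Control libraries and to 325534 to 347901 in the si-*Fndc1* libraries, without overlap. Rescaling each library to a common sum, as TPM values do, shifted the median log2 ratio of all tested genes from -0.0036 to -0.147. On that scale the ratio of si-*Fndc1* to si-Control was 0.758 for *Foxo3*, 1.04 for *Trim55* and 1.03 for *Fbxo30*, and the exact permutation tests of the latter pair gave p = 0.484 and 0.349. It was 0.911 for *Fbxo32*, 0.961 for *Trim63* and 0.901 for *Nedd4*, against 1.01, 1.06 and 0.995 as FPKM, so that *Fbxo32* and *Trim63* changed direction with the scale. The exact permutation tests of *Fbxo32* and *Nedd4* gave p = 0.00794 on the TPM scale, against 0.778 and 0.762 as FPKM, and that of *Trim63* gave 0.556 against 0.349.

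Fold changes over all genes went with the GC content of the transcripts. Across the 11185 genes with a known GC content and length, the Spearman correlation of the log2 fold change was -0.523 with GC content and -0.196 with length, over genes that are no independent replicates of each other. After the correction it was -0.00639 and 0.0258. *Fbxo30*, at 38.2% GC the lowest of the 10 genes, moved the most with the correction, from 0.19 to -0.05. *Trim54* at 59.9%, *Foxo4* at 55.2% and *Foxo3* at 53.2% lay above the median GC content of 50.5% and had log2 fold changes of -0.14, -0.07 and -0.25. *Fbxo32* at 48.7%, *Fbxo40* at 49.6%, *Foxo1* at 50.3% and *Trim55* at 50.5% lay near the median. *Nedd4*, at 44.9%, had 0.00 without and 0.01 with the correction, and *Trim63*, at 52.4%, had 0.09 in either fit. Whether GC content led to the differences of the 10 genes was not tested.

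**Figure D3:**
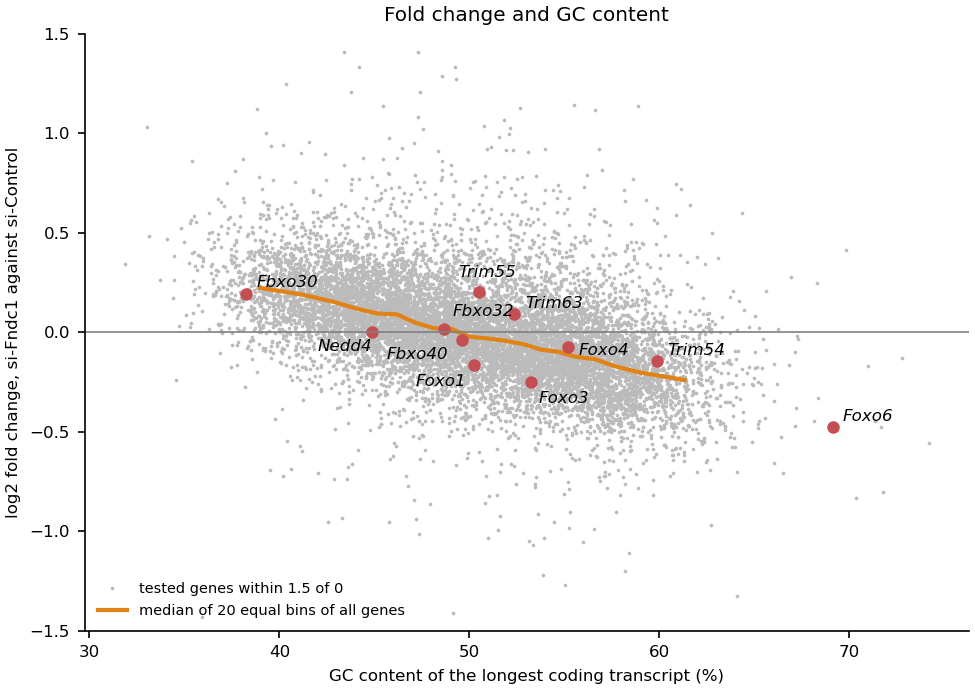
Log2 fold change (si-Fndc1 against si-Control) against the GC content of the longest coding transcript for tested genes within 1.5 of 0 (grey), with the median in 20 equal bins of all genes (orange) and the 10 genes and Foxo6 (red). The bin medians fall from left to right, with Fbxo30 (38.2% GC, 0.19) at the left and Foxo6 (69.1%, -0.48) at the right.

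Within the groups, some of the 10 genes varied together from library to library. Deviations of the log2 CPM (counts scaled to library size) from the group mean were compared over the 10 libraries as a description, since the points share the depth and GC trend of a library. The GC trend of a library, as the Spearman correlation of its deviations with GC content across genes, ran from -0.174 in si-*Fndc1* library 5 to 0.163 in si-Control library 3. *Foxo1* and *Foxo3* had a Pearson r of 0.91. *Foxo1* deviated by 0.20 in si-*Fndc1* library 2 and by -0.20 in library 5, and *Foxo3* by 0.15 and -0.19 in the same libraries. *Fbxo32* went against both, with r = -0.81 to *Foxo3* and r = -0.69 to *Foxo1*. *Fndc1* had r = 0.87 to *Foxo1*, 0.85 to *Foxo3* and -0.68 to *Fbxo32*, and *Foxo6* had r = 0.82 to *Foxo3*. Among the ligases, *Trim55* had r = 0.75 to *Trim63* and 0.70 to *Fbxo40*. Of all 45 pairs of the 10 genes, 26 had a positive r and the median was 0.12.

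**Figure D4:**
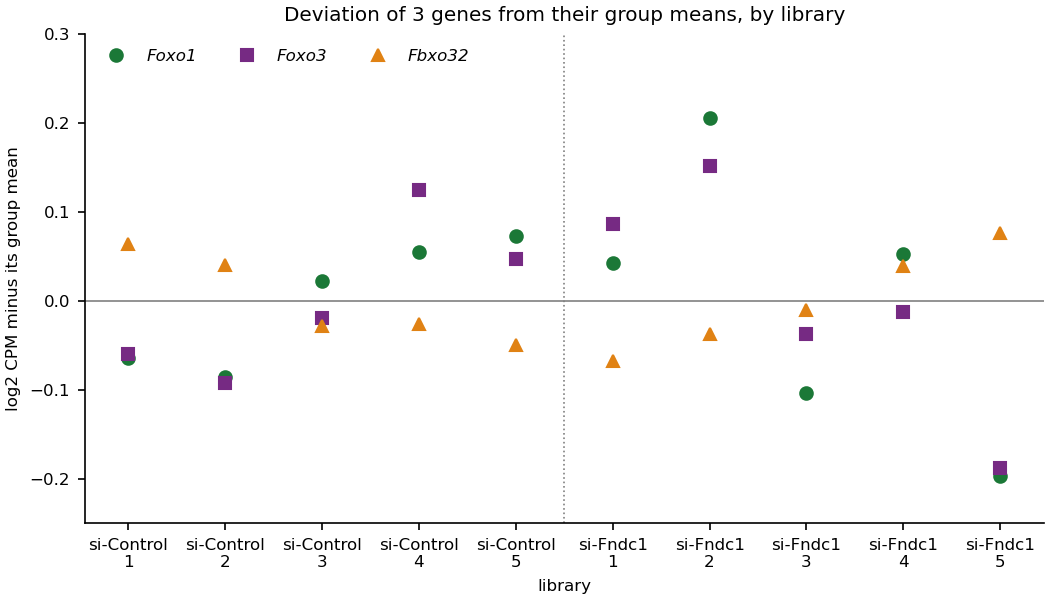
Deviation of the log2 CPM of Foxo1 (circles), Foxo3 (squares) and Fbxo32 (triangles) from its group mean (vertical axis) in each of the 10 libraries. Foxo1 and Foxo3 are highest in si-Fndc1 library 2, at 0.20 and 0.15, and lowest in si-Fndc1 library 5, at -0.20 and -0.19, where Fbxo32 is at its highest, 0.08.

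By the same measure, the tested genes most like *Foxo1* were *Snd1* (r = 0.95), *Nckap5l* (0.95) and *Clstn1* (0.95). Those most like *Fbxo32* were *Gm10224* (0.95), *Glce* (0.94) and *Srpr* (0.94), and those most like *Trim63* were *Txn2* (0.93), *Socs6* (0.91) and *Mrpl28* (0.91). These are the highest of 13548 values over 10 libraries.

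Other genes of the pathway were taken as lists, each to be read against 17.3% of all tested genes that rose, 17.2% that fell and a median log2 fold change of 0.00. Counts with the correction for GC content and length stand against 22.7% of 11185 genes, with 1260 called higher and 1278 lower. Of 23 tested target genes of FOXO other than the 10, 4 rose and 8 fell, with a median log2 fold change of 0.05, and the count fell to 4 with the correction for GC content and length. *Cat*, which encodes catalase, rose from 21.3 ± 0.829 to 29.7 ± 0.532 FPKM (log2 fold change 0.49, adjusted p = 1.17e-05, edgeR), and remained called with the correction (0.38). *Bbc3*, which encodes the pro-apoptotic protein PUMA, fell from 7.53 ± 0.536 to 5.36 ± 0.314 FPKM (-0.48, and -0.25 with the correction, where it was still called). *Pck1*, a gluconeogenic enzyme of liver, rose from 0.0359 ± 0.0521 to 1.15 ± 0.595 FPKM, together with the hepatocyte markers. It passed the filter on low values only through si-*Fndc1*, so that its rise was set by the filter. *Pck1* is nevertheless counted among the 4 target genes that rose and among the 4 called with the correction. The cell cycle inhibitors on the list were split, with *Cdkn1b* higher (0.27) and *Cdkn1a* lower (-0.16), and both lost their call with the correction.

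Of the 17 autophagy genes that FOXO factors are known to activate, 7 rose and 2 fell, with a median of 0.07. *Map1lc3a*, which encodes an LC3 protein of the autophagosome, rose from 145.6 ± 4.83 to 187.6 ± 9.39 FPKM (0.37, adjusted p = 9.12e-05, edgeR), and *Gabarap*, of the same family, rose by 0.33 on the log2 scale. Both were still called with the correction. The mitophagy receptors *Bnip3l* (0.28, adjusted p = 6.03e-05) and *Bnip3* (0.40, adjusted p = 0.000178, edgeR) rose as well. With the correction they were at 0.07 and 0.09 and were not called, and the list as a whole had 4 called genes, 2 in each direction. *Ulk1*, which encodes the kinase that starts autophagy, fell (-0.34, and -0.10 with the correction, where it was not called).

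Among 28 kinases, phosphatases and partners that set where FOXO proteins are, 6 rose and 6 fell, with a median of 0.03, and 10 were called with the correction. *Crebbp*, which encodes the acetyltransferase CBP, fell from 4.09 ± 0.326 to 2.45 ± 0.158 FPKM (-0.73, adjusted p = 2.84e-05, edgeR), and was at -0.49 with the correction. *Ywhaz*, which encodes a 14-3-3 protein, fell from 63.6 ± 1.82 to 53.8 ± 1.18 FPKM (-0.23, and -0.35 with the correction). *Ppp2ca*, the catalytic subunit of the phosphatase PP2A, rose from 37.9 ± 1.01 to 44.0 ± 0.981 FPKM (0.23, and 0.15 with the correction), and all 3 remained called. *Akt1* fell by 0.18 on the log2 scale and was at 0.05, not called, with the correction.

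Of the 9 lists, the one with the largest share of called genes without the correction (71.4%) was the ubiquitin conjugation machinery. It holds ubiquitin genes, E1 and E2 enzymes, subunits of cullin ligases, deubiquitinases and *Vcp*. Of its 21 tested genes, 13 rose and 2 fell, with a median log2 fold change of 0.20, and with the correction 8 rose and 0 fell. *Usp14*, a deubiquitinase of the proteasome, rose from 8.72 ± 0.221 to 11.8 ± 0.491 FPKM (0.45, adjusted p = 1.50e-05, edgeR). *Ube2b*, which encodes an E2 enzyme induced in wasting muscle, rose from 49.8 ± 1.98 to 65.7 ± 3.17 FPKM (0.41, and 0.09 with the correction). *Skp1*, the adaptor through which F-box proteins such as atrogin-1 join a cullin, rose from 62.6 ± 1.54 to 81.8 ± 4.49 FPKM (0.39, and 0.15 with the correction). All 3 were called in either fit.

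Of 16 other ligases with roles in muscle, 3 rose and 3 fell, with a median of 0.03. *Klhl41*, a sarcomere-associated adaptor, rose from 96.7 ± 4.12 to 110.2 ± 4.46 FPKM (0.20, and -0.02 with the correction), and *Xiap* rose from 6.00 ± 0.725 to 7.39 ± 0.463 FPKM (0.31, and 0.11 with the correction), neither called with the correction. *Cblb*, a ligase for IRS1, fell from 3.96 ± 0.180 to 3.48 ± 0.110 FPKM (-0.18, and -0.17 with the correction, called in either fit).

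The next list holds genes whose products are known substrates of the ligases among the 10 genes. Of its 25 tested genes, 6 rose and 6 fell, with a median of -0.07, and 12 were called with the correction, 7 higher and 5 lower. *Vim*, which encodes vimentin, rose from 143.1 ± 7.89 to 197.8 ± 14.6 FPKM (0.47), and *Ckm*, which encodes muscle creatine kinase, rose from 66.3 ± 3.29 to 86.2 ± 4.88 FPKM (0.39). *Igf1r*, which encodes the IGF1 receptor, fell from 4.80 ± 0.317 to 3.50 ± 0.224 FPKM (-0.45). All 3 were still called with the correction, at 0.58, 0.57 and -0.16. The atrogin-1 substrates *Myod1* (0.16) and *Eif3f* (0.28) rose in either fit, and *Irs1* (-0.23) fell in either fit.

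Of 22 other genes listed with the transcriptional regulation of the atrophy ligases, 0 rose and 7 fell, with a median of -0.11. This list, called other regulators below, also holds genes whose products are not transcription factors, among them *Fkbp5*. With the correction, 1 was called higher (*Fkbp5*, 0.25) and 2 lower (*Smad1* and *Myog*). *Smad1*, which encodes a BMP-activated factor, fell from 7.22 ± 0.397 to 5.45 ± 0.129 FPKM (-0.40, and -0.32 with the correction, called in either fit). *Hdac5* fell from 11.5 ± 0.480 to 9.25 ± 0.234 FPKM (-0.31) and *Hdac4* from 3.15 ± 0.161 to 2.46 ± 0.120 FPKM (-0.35). These deacetylases, which act in the response to denervation, were both at -0.00 to -0.01 with the correction and were not called. The number of called genes on this list was 4 without si-Control replicate 3 or without si-*Fndc1* replicate 5.

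In the broader KEGG annotations of the authors' table, the FoxO signaling pathway held 105 tested genes, of which 18 rose and 22 fell, with a median of 0.00. Ubiquitin mediated proteolysis held 128, of which 36 rose and 26 fell, with a median of 0.02. With the correction, 11 were called higher and 16 lower in the former, and 18 higher and 19 lower in the latter. *Pck1*, whose rise was set by the filter, is counted among the genes called higher in the former in either fit. The former includes 4 of the 10 genes and the latter 1. Among the genes with the smallest p-values were *Cat*, *Crebbp* and *Csnk1e* (-0.30) in the former and *Ube2b* and *Skp1* in the latter, and *Csnk1e* was at -0.10 with the correction and still called. Several genes stand on more than 1 list.

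**Figure D5:**
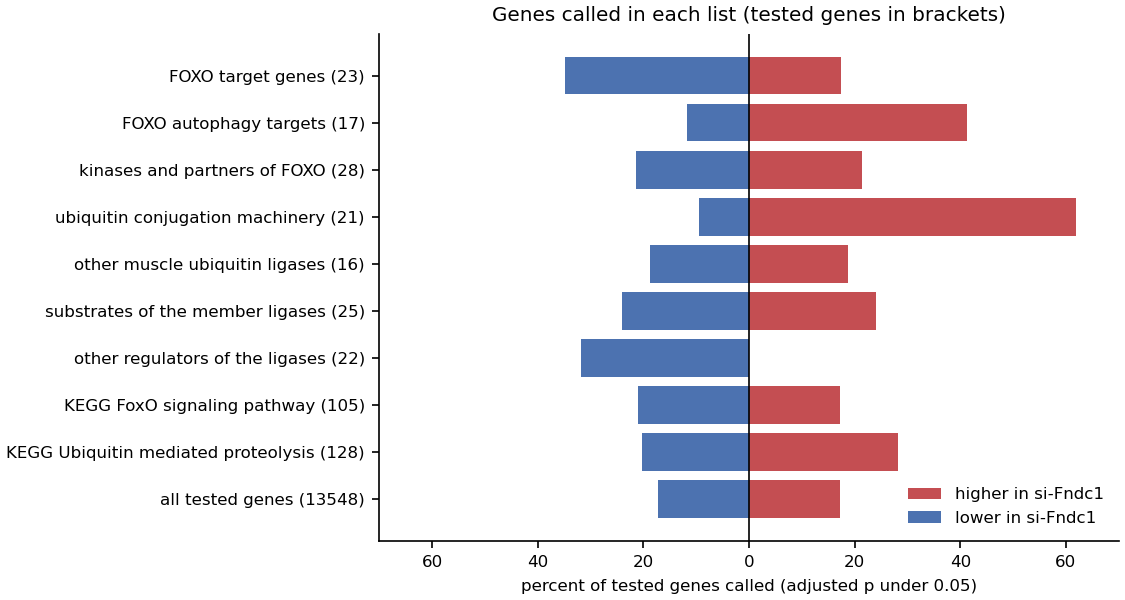
Percent of the tested genes of each list (number tested in brackets) called higher (red, to the right) or lower (blue, to the left) in si-Fndc1, beside all 13548 tested genes (17.3% and 17.2%). The ubiquitin conjugation machinery reaches furthest to the right, with 13 of 21 genes, and the other regulators of the ligases have 0 called higher and 7 of 22 lower. The counts are without the correction for GC content and length. With it these lists have 8 higher and 0 lower, and 1 higher and 2 lower. Of the 11185 genes corrected, 1260 were called higher and 1278 lower.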

How the data were processed

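RNA-seq of 5 si-Control and 5 si-*Fndc1* libraries of C2C12 cells was analysed, with groups and replicate numbers from the labels and 0 value columns left without a sample. The authors deposited counts per gene, without normalization, and FPKM values, which equal the count divided by library total and transcript length (1st to 99th percentile of the implied length over its median, 0.9958 to 1.0054). The sources disagree on the upstream steps: the paper names TopHat, mm10 and htseq-count, the series text STAR and mm9, and the submitters' processing notes GRCm39, cutadapt 1.9 and FastQC. The paper also names 4 libraries without saying which and another transfection reagent than the labels.

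The 10 genes and all lists were chosen with earlier results of these data known. The 13548 genes that averaged 0.5 FPKM or more were tested with edgeR 4.0.16 (TMM, quasi-likelihood test, Benjamini-Hochberg adjustment over all of them, R 4.3.3). The standard error is the log2 fold change over the square root of F. For single genes, FPKM levels went into exact permutation tests, two-sided and unadjusted (252 splits). The paper used DESeq2, run here as an alternative (1.42.0), as were limma 3.58.1, other scalings, other filters, a replicate term and each library left out. Per-library Huber splines (5 degrees of freedom, MASS) of log counts, 0.5 added, on GC content and length served as offsets for the 11185 genes (82.6%) with a coding transcript in the NCBIM37 annotation. Besides the 10 genes, *Foxo6* and *Fndc1*, the text names the 3 called genes with the smallest p of each list and the 3 genes most like *Foxo1*, *Fbxo32* and *Trim63*. A gene that this rule names is not reported here. Other genes named from the lists, and *Mylpf* from the markers, were chosen after their values were seen. Myotube, myoblast, hepatocyte, adipocyte and macrophage markers were summed as FPKM. The fits by edgeR, DESeq2, limma on log2(FPKM + 1) and with the replicate term were tested on simulated data without a GC or length trend. The correction for GC content and length was not tested in this way. Python 3.11.15 (pandas 2.3.3, numpy 2.4.6, scipy 1.17.1) was used for tables and permutation tests. Columns of gene annotation (KEGG) came from the authors' table.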

Additional observations from a re-analysis of the deposited data

How the results depend on the processing

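Over 22 alternative fits, *Foxo3*, *Trim55* and *Fbxo30* lost their calls only in the pair corrected for GC content and length, which called 2538 genes against 4244 of the same genes uncorrected (a comparison added after the data were seen). In this pair, without and with a replicate block, 0 of the 10 genes were called, and the log2 fold changes were -0.11 and -0.11 for *Foxo3*, 0.14 and 0.14 for *Trim55*, -0.053 and -0.054 for *Fbxo30* and 0.031 and 0.031 for *Foxo4*. The replicate block alone called 3572 genes and 3 of the 10, and with the correction 1647 genes. Deviations of same-numbered libraries from their group means had correlations of -0.0552 to 0.0595 across genes. Whether the replicate numbers pair the libraries cannot be told from these values alone, and the labels do not say. *Trim54* was called at a mean of 5 FPKM or more (-0.14), by limma on log2(FPKM + 1) and log2(FPKM + 0.1) (-0.15 in each) and on quantile-normalized values (-0.19), where *Nedd4* was at -0.047. With each library left out, the genes called among the 10 numbered 3 to 5 (5 without si-*Fndc1* replicate 2), *Foxo1* ran from -0.22 to -0.12 and *Trim54* from -0.17 to -0.11, called without si-Control replicate 2 (edgeR adjusted p = 0.0460) and without si-*Fndc1* replicate 2 (0.0434). On the TPM scale, *Fbxo32* was at a ratio of 0.911 and *Trim63* at 0.961, *Trim55* and *Fbxo30* no longer passed the exact permutation test (p = 0.484 and 0.349), and *Fbxo32* and *Nedd4* (0.901) now did (p = 0.00794 each).

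With the correction, without and with the block, the called genes were 4 and 4 for FOXO targets, 4 and 3 for autophagy, 8 and 7 for ubiquitin conjugation, 3 and 3 for other regulators, and 37 and 22 for ubiquitin mediated proteolysis. With both steps they were 6 for kinases and partners, 1 for other muscle ligases (3 with the block alone) and 17 for the FoxO pathway. The regulators numbered 4 at a mean of 5 FPKM or more and 4 to 8 with a library left out. The causes were not tested. *Foxo1* and *Fbxo40* fall below that mean and have no value there. Each of the 10 genes had at least 735 counts in every library.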
